A study of Mus musculus with 2 samples.

Results

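The cells described here are 2984 monocytes from MC38 tumours, spread over 14 clusters of the submitters' annotation. They are the cells of the second sequencing library that the annotation calls monocytes, without the 135 monocytes of its cluster 42. They make up 2984 of 3119 annotated monocytes and of 10476 annotated cells in that library, and the annotation of both libraries holds 19210 cells in 58 clusters and 10 cell types. MC38 is a mouse colon adenocarcinoma line. In the study, MC38 cells were placed under the skin of the right flank of mice that carry human Fcγ receptors, and the mice then received 2 injections into the peritoneum, 3 days apart, of 100 µg of an antibody against mouse GITR with a human IgG1 Fc, or PBS. CD45-positive cells, which are leukocytes, were sorted from the tumours 4 days after treatment, tagged per mouse with hashing antibodies and sequenced from the 3′ end of their transcripts on the 10x Genomics platform, with 3 mice per treatment.

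All 4 groups carried the human receptors and the tumour. The annotation calls the GA-aFuc antibody an agonist with an enhanced Fc, the GITR/Syn GA-aFuc antibody a non-agonist with an enhanced Fc, and the N297A antibody an agonist whose Fc is null, and the Untreated mice are the controls given PBS. The labels give neither the age nor the sex of the mice. The expression values come from library 2, with 350 and 508 monocytes in its 2 GA-aFuc mice, 436 and 594 in its 2 GITR/Syn GA-aFuc mice, 626 in its N297A mouse and 470 in its Untreated mouse. For library 1 only the annotation was used, and its 2375 monocytes from 6 mice enter the cluster shares alone. Each tested fold change therefore leans on a spread that was measured in the paired treatments, and the lone N297A and Untreated mice are assumed to vary as much.

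Monocytes leave the bone marrow through the chemokine receptor CCR2 and enter inflamed tissue and tumours, where they lose the surface protein Ly6C and turn into macrophages that carry MHC class II and make complement C1q. On the way they can take on different programs, among them a response to interferons, a response to low oxygen, an inflammatory program with Il1a and Nos2, and an alternatively activated one with Arg1 and Mrc1. They also carry Fcγ receptors, which bind the Fc part of antibodies. GITR belongs to the TNF receptor superfamily and costimulates T cells.

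The label monocytes matched the marker genes. All 8 monocyte markers were higher in these cells than in the 4938 macrophages of the library in each of 6 mice (4 macrophage clusters led by genes of other cell types were left out). The markers were chosen with earlier results of these data known, so they are no independent check of the label. Levels here are CPM, the UMIs of a gene scaled to a common total of UMIs, averaged over 6 mice. Ly6c2, which encodes Ly6C, stood at 2155 CPM in monocytes and 63.6 CPM in macrophages, Ccr2 at 463 and 63.4 CPM, Plac8 at 2145 and 99.6 CPM, and Hp, the haptoglobin gene, at 48.2 and 0.395 CPM. The marker Inhba was uneven, with 147 CPM in monocytes, 15.4 CPM in macrophages and 641 CPM in cluster 0. It lay below the macrophage level in clusters 1, 7, 29, 41 and 54. Macrophage genes were lower in monocytes but far from absent, with C1qa, a C1q subunit, at 1917 CPM in monocytes and 4930 CPM in macrophages. The lists of other cell types stayed low over the 14 clusters: in summed level, 6 T cell genes held 2.49 to 14.8 CPM, 5 NK cell genes 7.33 to 25.2 CPM, 4 epithelial genes up to 1.496 CPM, and 7 neutrophil genes 43.7 to 208 CPM.

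The cells had a median of 9174 UMIs and 2983.5 genes, and the sums per mouse held 3729646 to 6164334 UMIs. The median mitochondrial share was 1.17%, with 0 cells over 10%, and 34 barcodes occurred in both libraries. The hashtag with the most counts matched the mouse in the annotation for 10476 of 10476 cells. The mice of library 2 also differed in sex-linked transcripts. Xist, made in females, stood at 442 CPM in one GA-aFuc mouse and 424 CPM in one GITR/Syn GA-aFuc mouse, both numbered 2, and at 1.27 to 2.35 CPM in the other mice, among them N297A mouse 3 and Untreated mouse 3.

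The 14 clusters ran from cells close to blood monocytes to cells close to macrophages. Clusters were built from the same genes, so what follows describes them and carries no test. The summed level of 16 genes of monocyte-to-macrophage maturation was 2711 ± 625.2 CPM in cluster 54 and 3264 ± 915 CPM in cluster 27, against 25861 ± 5996 CPM in cluster 47 (SD, n = 6 mice throughout). In the other direction, the 8 monocyte markers summed to 14812 CPM in cluster 49 and 1592 CPM in cluster 47. Ly6c2 itself stood at 5200 CPM in cluster 49 and at 584 CPM in cluster 47, and C1qa at 227 CPM in cluster 49 and 3612 CPM in cluster 47.

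Clusters 54 and 27, with 65 and 178 cells, were at the early end. Cluster 54 was led by Stxbp6 (382 CPM, against 12.7 CPM in the other clusters), Hp (783 against 50.6 CPM), Ifitm6 (773 against 62.2 CPM) and the coagulation factor V gene F5 (154 against 10.98 CPM). Cluster 27 shared Hp (363 against 82.9 CPM) and added Vcan, the proteoglycan versican (324 against 53.9 CPM), and Cxcl10, an interferon-induced chemokine for T cells (4466 against 869 CPM). Each of these genes was higher than in the other clusters in 6 of 6 mice. The MHC class II list was low in both, at 1640 ± 1126 CPM in cluster 54 and 3687 ± 2138 CPM in cluster 27.

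Clusters 49 and 21 carried the type I interferon program. The 21 interferon-stimulated genes of the list summed to 25956 ± 5039 CPM in cluster 49 and 16227 ± 1789 CPM in cluster 21, with cluster 27 at 14239 ± 3204 CPM and the other 11 clusters between 2806 and 6793 CPM. Rsad2, the antiviral protein viperin, led cluster 49 with 5466 CPM against 556 CPM, beside Cmpk2, Ifit2 and Isg20. Ifit3, an antiviral RNA-binding protein, stood at 1467 CPM in cluster 49 and 1170 CPM in cluster 21. The pair differed in maturity: cluster 49 had 16702 ± 2024 CPM of classical monocyte genes and 5113 ± 642 CPM of maturation genes, and cluster 21 had 6586 ± 782 CPM and 17180 ± 3230 CPM. Cluster 49 also held the neutrophil gene S100a9 among its leading genes, at 73.9 CPM against 4.48 CPM, but above the other clusters in only 2 of 6 mice, and at 2.18 against 1.12 CPM without GA-aFuc mouse 3.

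The promoters of the leading genes differ between these programs in their letters. They are shown because interferon-stimulated genes are bound by factors that recognise GAAANNGAAA, while genes induced by low oxygen carry ACGTG in their control regions. The windows are the 250 bases before the annotated start, 5′ to 3′ on the strand of the gene, from RefSeq on GRCm38.p6, and capitals mark each match to the motif on either strand. The Rsad2 window (chr12:26456453-26456702, minus strand) has its motif 120 bases before the start, and the Ifit3 window (chr19:34583279-34583528, plus strand) has its first 156 bases before it. For Bnip3 (chr7:138909507-138909756, minus strand) and Egln3 (chr12:54203875-54204124, minus strand), both leading genes of cluster 8, the hypoxia motif lies 108 and 229 bases before the start; in Bnip3 the matches on the 2 strands overlap in 1 run.
Rsad2: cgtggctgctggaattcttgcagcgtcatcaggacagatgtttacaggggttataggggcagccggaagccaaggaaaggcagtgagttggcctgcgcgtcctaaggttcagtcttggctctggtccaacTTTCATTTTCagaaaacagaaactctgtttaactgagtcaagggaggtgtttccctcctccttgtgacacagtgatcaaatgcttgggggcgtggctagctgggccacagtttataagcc
Ifit3: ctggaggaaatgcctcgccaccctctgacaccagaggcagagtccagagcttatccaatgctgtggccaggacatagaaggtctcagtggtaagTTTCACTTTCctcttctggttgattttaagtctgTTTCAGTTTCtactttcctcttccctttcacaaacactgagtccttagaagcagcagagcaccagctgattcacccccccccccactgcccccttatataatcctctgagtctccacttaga
Bnip3: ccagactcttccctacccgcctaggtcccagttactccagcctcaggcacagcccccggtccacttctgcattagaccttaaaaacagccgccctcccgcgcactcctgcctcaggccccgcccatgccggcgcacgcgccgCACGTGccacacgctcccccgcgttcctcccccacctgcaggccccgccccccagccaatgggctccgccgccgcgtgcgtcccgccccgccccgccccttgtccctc
Egln3: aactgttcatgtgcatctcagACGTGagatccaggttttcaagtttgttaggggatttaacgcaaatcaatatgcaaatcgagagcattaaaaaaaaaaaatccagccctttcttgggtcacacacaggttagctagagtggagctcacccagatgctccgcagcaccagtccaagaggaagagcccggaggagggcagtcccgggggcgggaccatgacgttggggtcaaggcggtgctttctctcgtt

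GAAANNGAAA was found, from 250 bases before to 50 bases after a start, for 6 of 8 matched leading genes of cluster 21 and 5 of 10 of cluster 49, beside 1079 of 27025 symbols in the table (3.99%). ACGTG was found for 6 of 7 matched leading genes of cluster 8, beside 5886 of 27025 symbols (21.8%), and for 0 of 8 of cluster 21. The genes and motifs were picked after the clusters had been seen, and a match describes letters, not binding.

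Cluster 8, with 306 cells, held the low-oxygen program and stayed rich in classical monocyte genes (13850 ± 1349 CPM). Its summed level of glycolysis and hypoxia genes was 10624 ± 2922 CPM, with 9721 ± 1051 CPM in cluster 0 and 2751 ± 435 CPM in cluster 54. It was led by Hmox1, heme oxygenase 1 (653 against 104 CPM), Hilpda and Ero1a (251 against 55.8 CPM and 361 against 83.7 CPM), the oxygen sensor Egln3 (79.0 against 14.6 CPM), the mitophagy gene Bnip3 (321 against 98.2 CPM), Spp1, osteopontin (348 against 98.2 CPM), and Arg1, arginase 1 (1726 against 494 CPM). Ccl24, a chemokine that attracts eosinophils, followed at 421 against 74.1 CPM, above the other clusters in 5 of 6 mice. GA-aFuc mouse 3 had the highest level of Hmox1 (79.3 to 2985 CPM over the 6 mice), Arg1 (293 to 6480.0 CPM) and Ccl24 (2.14 to 2249.5 CPM). Without it, in a mean chosen after seeing the data, Hmox1 stood at 186 against 54.0 CPM, Arg1 at 776 against 262 CPM and Ccl24 at 55.1 against 14.7 CPM, and Ero1a and Egln3 were at 224 and 47.0 CPM, while Hilpda ran from 74.4 to 754 CPM over all 6 mice. The alternative activation list reached its highest summed level here, 3885 ± 4325 CPM, with an SD above the mean; its values per mouse and treatment are given further on.

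Cluster 0, the largest with 447 cells (15.0%), combined inflammatory, matrix-degrading and antioxidant genes. Mmp12, the macrophage elastase, stood at 520 CPM against 34.4 CPM in the other clusters, Inhba, the activin A subunit, at 641 against 62.8 CPM, and Nos2, the inducible nitric oxide synthase, at 525 against 53.9 CPM. The arginine transporter Slc7a2 (342 against 42.6 CPM), the cystine transporter Slc7a11 (464 against 68.4 CPM), the cytokine gene Il1a (157 against 25.6 CPM) and Ptgs2, cyclooxygenase 2 (460 against 106 CPM) completed it. The NRF2 and heme list summed to 35452 ± 10732 CPM and the inflammatory list to 9597 ± 2224 CPM, both above the mean of every other cluster. Cxcl3 was among the leading genes of cluster 0 with 259 against 20.9 CPM, but above the other clusters in 4 of 6 mice, and at 156 against 3.69 CPM without GA-aFuc mouse 3.

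The more mature clusters separated by MHC class II. It was highest in cluster 1 (31704 ± 4203 CPM), cluster 18 (30515 ± 4472 CPM), cluster 29 (29646 ± 3972 CPM) and cluster 22 (28701 ± 4771 CPM), and low in cluster 7 (8113 ± 4234 CPM) and cluster 47 (7806 ± 4042 CPM) although both of these were rich in maturation genes. Cluster 1 was led by H2-Eb1 (5186 against 2342 CPM), C1qa (3099 against 1558 CPM) and Il1r2, the decoy receptor of interleukin 1 (497 against 217 CPM). Cluster 18 shared Il1r2 and the class II genes and added Ifitm1 (617 against 157 CPM). Cluster 22, with a median of 12092 UMIs, carried the interferon-γ-induced GTPase Iigp1 (1358 against 458 CPM), Mrc1, the mannose receptor (166 against 49.7 CPM, or 106 against 26.1 CPM without GA-aFuc mouse 3) and Dnase1l3 (143 against 26.5 CPM).

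The class II low clusters were led by other genes. Cluster 7 had Apoc2 (382 against 162 CPM) and Ms4a7 (852 against 418 CPM), while cluster 47, the deepest with a median of 12818 UMIs, had Pf4, platelet factor 4 (359 against 72.6 CPM), Ms4a7 (1275 against 386 CPM) and Tmem119 (168 against 47.1 CPM). Of the small remaining clusters, 29 was led by Cadm1 (148 against 36.1 CPM) and the chemokine Ccl3 (488 against 167 CPM), 37 by the chemokine Ccl5 (2425 against 545 CPM) and Treml4, a gene of non-classical monocytes (54.7 against 14.2 CPM, or 35.7 against 14.7 CPM without the Untreated mouse), and 41 by Trim69 (122 against 13.6 CPM). Apart from Treml4, these genes do not belong to the monocyte subset lists used here. Depth differed between clusters, from a median of 6775 UMIs in cluster 37 to 12818 UMIs in cluster 47, and its part in these levels was not tested.

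**Figure D1:**
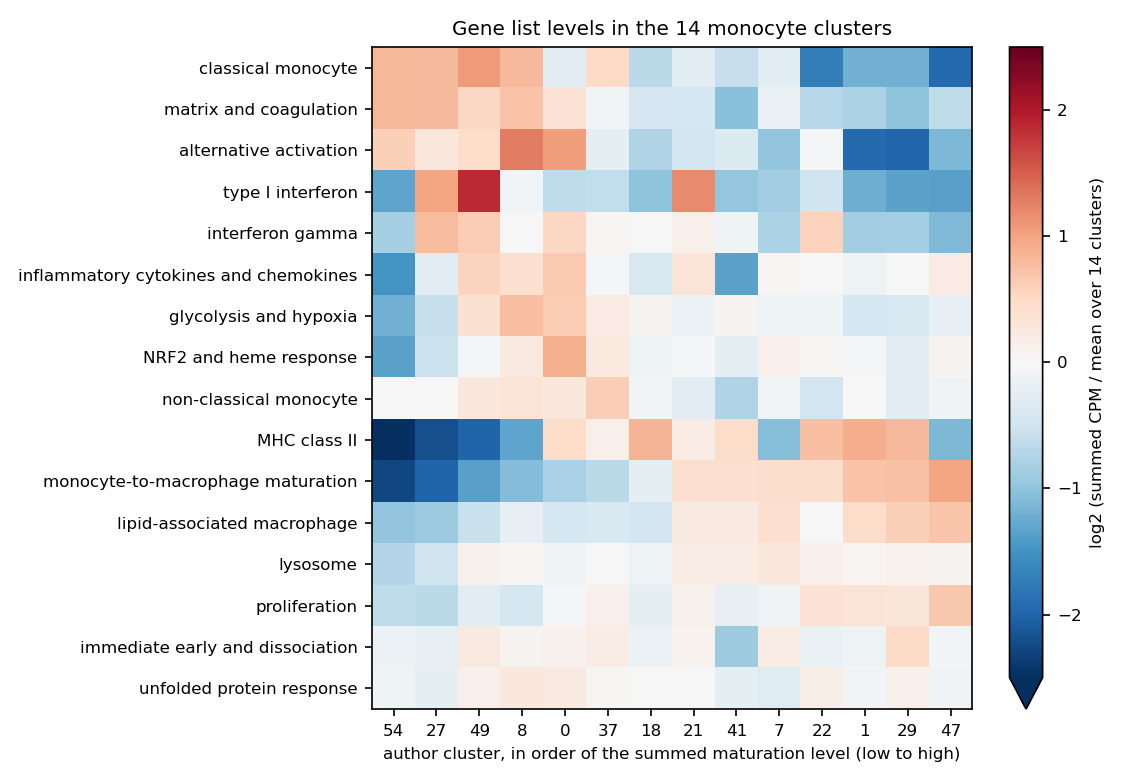
Summed level of each gene list (rows) in each of the 14 monocyte clusters (columns, from the lowest to the highest maturation list), as log2 of the level over the mean of the clusters, averaged over 6 mice. Type I interferon genes stand out in clusters 49, 21 and 27, alternative activation in clusters 8 and 0, and MHC class II in clusters 1, 18, 29 and 22.

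Transcripts of the human FcγRIII genes were fewest in the earliest clusters. The transcripts counted as FCGR3B, which encodes an FcγRIII, stood at 164 CPM in cluster 54, 629 CPM in cluster 27 and 1687 CPM in cluster 49, and at 2925 to 4553 CPM in the clusters other than these and cluster 8 (1747 CPM). FCGR3A lay between 17.6 CPM in cluster 54 and 536 CPM in cluster 41. FCGR3A and FCGR3B are nearly identical in sequence, so the split of reads between them is uncertain. The inhibitory receptor FCGR2B varied less, from 683 CPM in cluster 27 to 1419 CPM in cluster 41, and was higher in monocytes than in macrophages in each of 6 mice (1114 ± 92.6 and 401 ± 92.7 CPM, SD). These values describe the clusters, with no test.

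Across the 12 mice of both libraries, 1 of 14 clusters (7.14%) differed in its share of monocytes between the 4 treatments, and that was cluster 0. It held 16.5%, 22.0% and 18.7% of monocytes in the 3 GA-aFuc mice. For GITR/Syn GA-aFuc the shares were 13.6%, 17.9% and 12.5%, with 10.2%, 11.1% and 10.1% in the N297A mice, and 11.3%, 10.9% and 12.8% in the Untreated mice. The GA-aFuc mice did not overlap with the N297A or Untreated mice, and the GITR/Syn GA-aFuc mice overlapped with both neighbours. GA-aFuc mice averaged 19.1 ± 2.79%, GITR/Syn GA-aFuc mice 14.7 ± 2.86%, N297A mice 10.4 ± 0.531% and Untreated mice 11.7 ± 0.957% (SD, n = 3 each). An exact two-sided permutation test within libraries gave p = 0.000988 for cluster 0, or 0.0138 after Benjamini-Hochberg adjustment over the 14 clusters. Several leading genes of cluster 0 also differ between the treatments over all monocytes, so its size and the level of those genes cannot be told apart.

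For pairs of treatments, an edgeR fit of the cell counts with library as a term found more cluster 0 cells in GA-aFuc mice than with no treatment (log2 difference 0.66, SE 0.19, adjusted p = 0.0199; 1 of 14 clusters, 7.14%) and than in N297A mice (0.83, SE 0.19, adjusted p = 0.00163; 1 of 14 clusters, 7.14%). GITR/Syn GA-aFuc against Untreated gave 0.26 (adjusted p = 0.749) and N297A against Untreated −0.18 (adjusted p = 0.820), and GITR/Syn GA-aFuc against GA-aFuc gave −0.39 (adjusted p = 0.174), which did not pass. With both Fc-enhanced antibodies together, cluster 0 averaged 16.9 ± 3.49% in 6 Fc-enhanced mice and 11.1 ± 0.969% in the 6 other mice. The exact adjusted p was 0.124, and 0 of 14 clusters passed, with 1 at an unadjusted p under 0.05. The smallest p this test can give is 0.00444, so 1 cluster alone could not pass after adjustment over 14 clusters. Within library 1 the means were 15.0% and 10.9%, and within library 2 they were 17.8% and 11.4%. The exact call was lost with all annotated cells as the denominator (adjusted p = 0.251). In library 2 alone the exact adjusted p was 0.598, and in library 1 alone 0.544. The 6 mice of 1 library allow too few arrangements for 1 cluster alone to pass, so these values cannot decide it.

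Leaving out single mice also ended the exact call for cluster 0. The adjusted p was 0.254 without GA-aFuc mouse 2 and again without GA-aFuc mouse 3, 0.171 without GITR/Syn GA-aFuc mouse 1, 0.0700 without N297A mouse 1 and 0.0596 without Untreated mouse 1. Without any of the other mice the adjusted p lay between 0.00519 and 0.0493. The edgeR call against Untreated ended without GA-aFuc mouse 2, without N297A mouse 2 and without any of the 3 Untreated mice (adjusted p = 0.0513 to 0.0876), and the call against N297A ended without N297A mouse 3 (0.167).

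No other cluster passed. In cluster 29 the GA-aFuc mice averaged 4.52 ± 1.13%, the GITR/Syn GA-aFuc mice 7.19 ± 1.37%, the N297A mice 7.06 ± 0.669% and the Untreated mice 7.49 ± 1.32% (exact adjusted p = 0.182). Cluster 49, the strongest interferon cluster, held 2.74 ± 0.166% of monocytes with GA-aFuc, 2.95 ± 0.781% with GITR/Syn GA-aFuc, 4.07 ± 0.481% with N297A and 3.02 ± 0.259% without treatment (exact adjusted p = 0.182). Monocytes as a share of all annotated cells ran from 20.3% to 35.9% over the 12 mice, and the exact test over the 4 treatments gave p = 0.684.

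**Figure D2:**
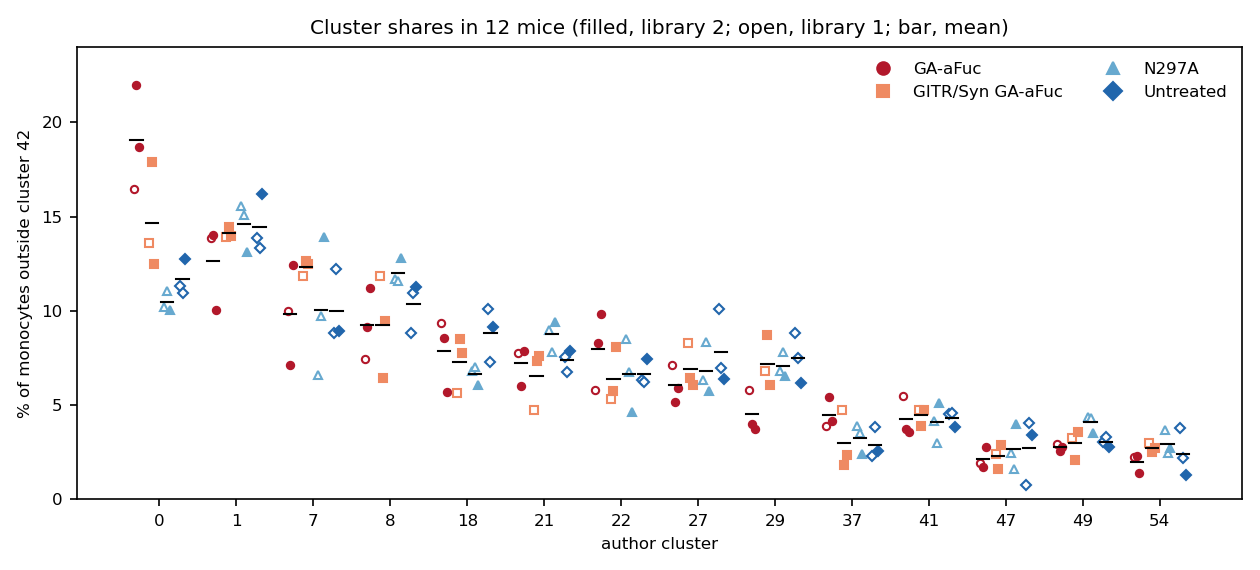
Share of each cluster among monocytes (percent, vertical axis) in each of 12 mice by treatment, with filled points for library 2, open points for library 1 and a bar for the mean of 3 mice. In cluster 0 the GA-aFuc mice lie at 16.5% to 22.0%, above the N297A and Untreated mice at 10.1% to 12.8%.

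GA-aFuc against Untreated asks what the agonist antibody with the enhanced Fc did to monocytes. The called genes included 7 of 14 tested genes of alternative activation, among them Arg1 and Ccl24, 3 of 17 of matrix and coagulation and 2 of 17 inflammatory cytokine and chemokine genes. Of 11891 genes tested by edgeR's quasi-likelihood test on UMIs summed per mouse, 32 (0.269%) were higher in GA-aFuc mice and 0 lower at a Benjamini-Hochberg adjusted p under 0.05. At an unadjusted p under 0.05 there were 773 genes in either direction, and DESeq2 called 32 higher and 1 lower. The levels below are CPM scaled between mice by TMM, and a log2 fold change comes from that fit.

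Arg1 (ENSMUSG00000019987) breaks down arginine and marks alternatively activated and suppressive myeloid cells. Arg1 measured 1231 and 2330 CPM in the GA-aFuc mice, 249.6 and 312 CPM in the GITR/Syn GA-aFuc mice, 151 CPM in the N297A mouse and 167 CPM in the Untreated mouse. Both GA-aFuc mice were far above the other 4, among which the GITR/Syn GA-aFuc mice stood above the N297A and Untreated mice. The log2 fold change was 3.41 (SE 0.36, adjusted p = 0.00164), and it passed in each of 16 other settings, with 2.88 to 3.801. Ccl24 (ENSMUSG00000004814) had 110 and 651 CPM in the GA-aFuc mice, 8.27 and 2.18 CPM in the GITR/Syn GA-aFuc mice, 4.65 CPM in the N297A mouse and 4.23 CPM in the Untreated mouse (6.49, SE 1.01, adjusted p = 0.0150). The GA-aFuc mice themselves differed by a wide margin, and mouse 3 carried most of the Ccl24.

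Arg1 and Ccl24 belong to the alternative activation list. Of its 14 tested members 7 were called higher, and all 14 had a positive log2 fold change with a median of 2.60, beside a median of 0.01 over all genes tested. The list was put together with results of these data known, so its direction is not independent evidence. Mrc1 (ENSMUSG00000026712) stood at 140 and 240.5 CPM in the GA-aFuc mice, 40.9 and 15.5 CPM in the GITR/Syn GA-aFuc mice, 12.2 CPM in the N297A mouse and 17.3 CPM in the Untreated mouse (3.46, SE 0.49, adjusted p = 0.00699). Pdcd1lg2, the PD-1 ligand PD-L2, had 97.5 and 133 CPM, then 33.3 and 20.2 CPM, 7.51 CPM and 18.4 CPM in the same order of mice (2.65, SE 0.32, adjusted p = 0.00304). In both genes GITR/Syn GA-aFuc mouse 2 stood above the N297A and Untreated mice, and GITR/Syn GA-aFuc mouse 3 close to the Untreated one.

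Cdh1, E-cadherin, which marks alternatively activated mouse macrophages, had 28.3 and 38.4 CPM in the GA-aFuc mice and 2.96 CPM in the Untreated mouse (3.49, SE 0.44, adjusted p = 0.00304). The lectin gene Mgl2 had 36.3 and 47.5 CPM in GA-aFuc and 8.04 CPM in Untreated (2.38, SE 0.32, adjusted p = 0.00484). Slc7a2, which brings arginine into the cell, had 192 and 242 CPM in GA-aFuc and 37.2 CPM in Untreated (2.54, SE 0.45, adjusted p = 0.0308), a call that was lost in 7 of 16 other settings (adjusted p = 0.0504 to 0.523, the highest by DESeq2). The GA-aFuc mice stood above the other 4 mice in all of these genes. Summed over its 16 members, the list held 2384 and 4699 CPM in the GA-aFuc mice, 994 and 835 CPM in the GITR/Syn GA-aFuc mice, 525 CPM in the N297A mouse and 687 CPM in the Untreated mouse.

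Matrix and coagulation genes formed the next group, with 3 of 17 called higher, all 17 positive and a median of 1.01. Mmp12 (ENSMUSG00000049723) stood at 268 and 183 CPM in the GA-aFuc mice, 94.5 and 130.2 CPM in the GITR/Syn GA-aFuc mice, 17.0 CPM in the N297A mouse and 32.4 CPM in the Untreated mouse (2.80, SE 0.31, adjusted p = 0.00164). The log2 fold change of GITR/Syn GA-aFuc against Untreated was 1.80 for Mmp12 and 0.75 for Arg1, and neither passed. For both genes the Fc-enhanced mice did not overlap with the others. The collagenase Mmp13 was likewise higher in all Fc-enhanced mice than in the others. It had 49.1 and 91.0 CPM, 34.0 and 53.8 CPM, 8.58 CPM and 13.3 CPM in the same mice (2.40, SE 0.38, adjusted p = 0.0176). Here GITR/Syn GA-aFuc mouse 3 stood above GA-aFuc mouse 2. F7, coagulation factor VII, was low, at 13.9 and 39.1 CPM in GA-aFuc and 3.17 CPM in Untreated mice (3.07, SE 0.57, adjusted p = 0.0416), and 7 of 16 other settings gave an adjusted p of 0.0567 to 0.207. F10, coagulation factor X, which was listed with the classical monocyte genes, had 119 and 196 CPM in GA-aFuc and 49.9 CPM in Untreated mice (1.66, SE 0.29, adjusted p = 0.0288).

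Of 17 inflammatory cytokine and chemokine genes 2 were called higher and 16 were positive, with a median of 1.01. Il1a (ENSMUSG00000027399), interleukin 1α, had 65.7 and 59.8 CPM in the GA-aFuc mice, 47.6 and 61.0 CPM in the GITR/Syn GA-aFuc mice, 17.5 CPM in the N297A mouse and 23.3 CPM in the Untreated mouse (1.43, SE 0.24, adjusted p = 0.0238). Cxcl2, a neutrophil chemokine, had 1230.3 and 1722 CPM in GA-aFuc and 477 CPM in Untreated mice (1.63, SE 0.31, adjusted p = 0.0466). That call did not hold in 8 of 16 other settings, in which the log2 fold change was 1.32 to 1.63 and the adjusted p 0.0543 to 0.327, among them DESeq2 (0.327) and the fit without N297A mouse 3 (0.0574). Ptgs2 missed the threshold (1.19, adjusted p = 0.0566). Other leading genes of cluster 0 rose as well: Inhba by 2.35 (adjusted p = 0.0399), Slc7a11 by 1.82 (adjusted p = 0.00787) and Nos2 by 1.48 on the log2 scale (adjusted p = 0.0399). Inhba no longer passed in 8 of 16 other settings (adjusted p = 0.0543 to 0.514), with a log2 fold change of 1.74 for equal cells per cluster, 2.36 by DESeq2 (adjusted p = 0.453) and 2.35 without N297A mouse 3 (adjusted p = 0.0567). Nos2 no longer passed in 6 of 16 (adjusted p = 0.0524 to 0.667), with 0.91 for equal cells per cluster and 1.48 without N297A mouse 3 (adjusted p = 0.0524).

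Further called genes included Hbegf, a growth factor of the EGF family, with 34.2 and 63.6 CPM in GA-aFuc and 3.38 CPM in Untreated mice (3.85, SE 0.48, adjusted p = 0.00304), and the fatty acid binding protein gene Fabp5, with 119 and 163 CPM in GA-aFuc and 48.2 CPM in Untreated mice (1.55, SE 0.25, adjusted p = 0.0174). Fam20c, a secreted kinase (3.52, adjusted p = 0.0416), Ksr2, a MAP kinase scaffold (3.47, adjusted p = 0.0211), Rusc2 (2.69, adjusted p = 0.0375), the activating receptor Tarm1 (1.80, adjusted p = 0.00657) and Flt1, the VEGF receptor 1 (1.29, adjusted p = 0.0238) were also higher. The call was lost in 7 of 16 other settings for Fam20c (adjusted p = 0.0567 to 0.163), in 5 of 15 for Rusc2 (0.0678 to 0.161) and in 3 of 16 each for Ksr2 and Flt1, of which Flt1 had a log2 fold change of 0.90 with equal cells per cluster. Of the 32 genes, 23 had all 4 Fc-enhanced mice above the N297A and the Untreated mouse, among them Arg1, Mmp12, Il1a and Nos2. In 9 others the GA-aFuc mice alone stood above all the rest, namely Ccl24, Cdh1, Cxcl2, F7, Fabp5, Gm19951, Mrc1, Slc7a2 and Tarm1. The 2 orders overlap. In 19 of the 23 genes both GA-aFuc mice also stood above the other 4 mice, which makes 28 of the 32. The orders were read off after the values had been seen. The 32 genes had been selected for their GA-aFuc level, and the share of all tested genes with these orders was not counted.

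**Figure D3:**
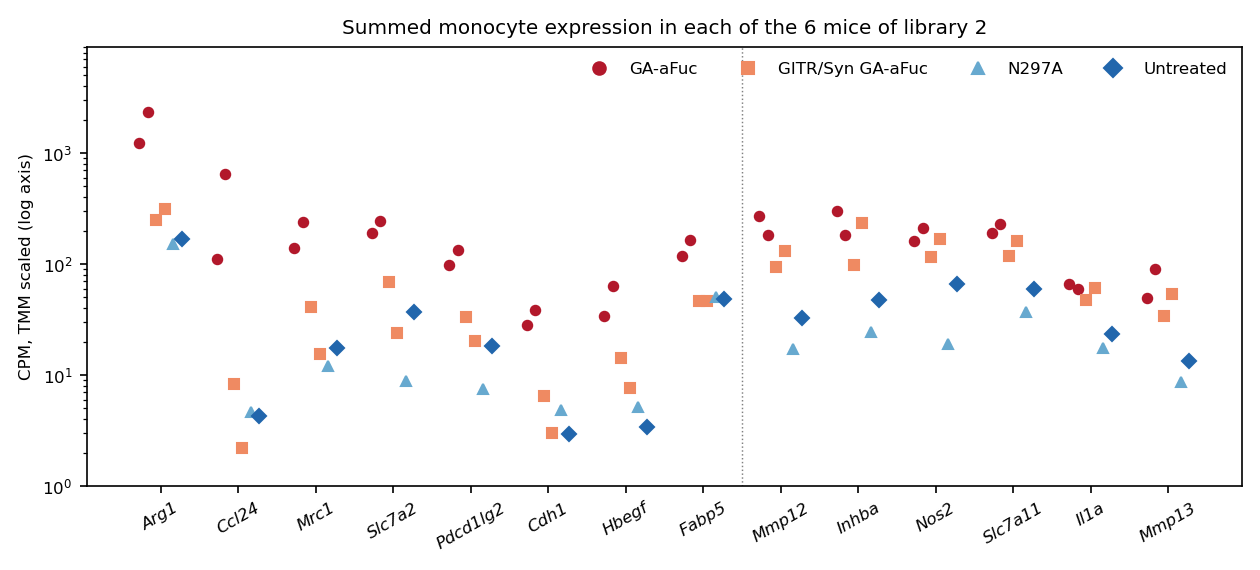
Level of 14 genes in each mouse of library 2 (TMM-scaled CPM, log axis), by treatment. Left of the dotted line stand genes such as Arg1 and Ccl24 whose 2 GA-aFuc mice lie above all others (Ccl24 110 and 651 CPM, other mice 2.18 to 8.27 CPM). Right of it stand genes such as Mmp12 and Il1a that are high in all 4 Fc-enhanced mice. The sides overlap and are no separate classes. All 4 Fc-enhanced mice also lie above the rest for Arg1, and both GA-aFuc mice above all others for Mmp12. The line was placed after the values had been seen.

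Other programs did not pass in this comparison. All 20 tested glycolysis and hypoxia genes were positive with a median of 0.43, and 0 passed, Ero1a coming closest to it (1.65, adjusted p = 0.158). All 11 MHC class II genes were negative with a median of −0.54 and 0 passed; H2-Eb1 had 3455 and 1881 CPM in GA-aFuc and 4294 CPM in Untreated mice (−0.69, adjusted p = 0.675). The type I interferon list had a median of −0.25 with 0 of 21 called, and the interferon-γ list a median of −0.07 with only Nos2 called of 17. Classical monocyte genes (1 of 14 called, F10, median 0.35), maturation genes (1 of 16, Mrc1, median −0.10) and NRF2 genes (1 of 10, Slc7a11, median 0.61) had at most 1 called member each. Hmox1 had 70.8 and 704 CPM in the GA-aFuc mice and 57.5 CPM in the Untreated mouse, so only mouse 3 was high.

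Several measured facts go with these calls. The 7 neutrophil genes summed to 63.8 and 163 CPM in the GA-aFuc mice, 88.4 and 61.0 CPM in the GITR/Syn GA-aFuc mice, 47.3 CPM in the N297A mouse and 61.4 CPM in the Untreated mouse, and S100a9 stood at 0.801 and 41.5 CPM in the GA-aFuc mice. GA-aFuc mouse 3 was also the higher one for Arg1, Ccl24 and Hmox1, and the part of neutrophil RNA in the result was not tested. Arg1 was also measured at 10.7 and 140 CPM in CD8 T and NK cells from GA-aFuc mice, with 9.98 CPM in those of the Untreated mouse, and the part of free RNA was not tested. In macrophages it reached 334 and 1134 CPM in GA-aFuc and 78.9 CPM in Untreated mice. The left-out cluster 42 monocytes had 6.93 and 6.06 CPM of Arg1 in GA-aFuc mice and 0 UMIs of it in the Untreated mouse.

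The count of 32 depended on the fit. Without GA-aFuc mouse 2 it was 262, of which 32 were the same genes, without GA-aFuc mouse 3 it was 79 (31 of the same), without GITR/Syn GA-aFuc mouse 2 it was 99 and without GITR/Syn GA-aFuc mouse 3 it was 110. With 350 cells drawn per mouse it was 13, and with 311 cells per mouse of the same cluster makeup it was 9, in both cases among the 32. In that equal makeup, which removes differences in cluster size, all 32 genes stayed positive with a median of 1.80 against 2.21 in full. The genes had been selected as higher in these mice and the drawn cells are part of the same cells, so a positive sign is no independent evidence. Arg1 (2.91) was still called, and Il1a (1.19, adjusted p = 0.401) was not.

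GITR/Syn GA-aFuc against GA-aFuc sets 2 mice against 2 and asks what the loss of agonism changed when the Fc stayed enhanced. Of 11891 genes 19 (0.16%) were called, of which 18 (0.151%) were lower and 1 (0.00841%) higher in GITR/Syn GA-aFuc mice, with 619 at an unadjusted p under 0.05. Of the 14 tested alternative activation genes 6 were called lower, which makes 6 of the 18 lower genes, with a list median of −1.65 beside −0.00 over all genes. Ccl24 was lower by a log2 fold change of −6.27 (SE 0.72, adjusted p = 0.00101), Cdh1 by −2.87 (SE 0.31, adjusted p = 0.000820), Mrc1 by −2.78 (SE 0.35, adjusted p = 0.00199), Arg1 by −2.66 (SE 0.26, adjusted p = 0.000715), Slc7a2 by −2.24 (SE 0.34, adjusted p = 0.0112) and Pdcd1lg2 by −2.12 (SE 0.24, adjusted p = 0.000820). F7 (−2.94), Hbegf (−2.21), Tarm1 (−1.74) and Fabp5 (−1.59) were lower too. Mmp12, Il1a, Nos2 and Inhba were not among the called genes.

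The 1 gene higher in GITR/Syn GA-aFuc mice was Spint1, a serine protease inhibitor, with 149 and 150.2 CPM in the GITR/Syn GA-aFuc mice against 75.6 and 58.1 CPM in the GA-aFuc mice (1.16, SE 0.18, adjusted p = 0.0170). The N297A mouse had 54.0 CPM and the Untreated mouse 142 CPM. The mice given an agonist were thus low and the mice without one high, whatever the Fc. That split was read off after seeing the values, with 1 N297A and 1 Untreated mouse. The call was lost without GA-aFuc mouse 3 (adjusted p = 0.0745). Also lower in GITR/Syn GA-aFuc mice were the syndecan gene Sdc4, with 146 and 186 CPM against 310 and 434 CPM in GA-aFuc mice (−1.16, adjusted p = 0.0356), and Anpep, aminopeptidase N (−1.12, adjusted p = 0.0396). Anpep did not pass in 11 of 17 other settings (adjusted p = 0.0577 to 0.272), among them the fits without GITR/Syn GA-aFuc mouse 3 (0.139), N297A mouse 3 (0.0630) or Untreated mouse 3 (0.0641). Sdc4 did not pass in 8 of 17 (adjusted p = 0.0503 to 0.144), among them the fits without GA-aFuc mouse 3 (0.144), GITR/Syn GA-aFuc mouse 2 (0.0547) or N297A mouse 3 (0.0503). The number of called genes was 222 without GA-aFuc mouse 2, 43 without GA-aFuc mouse 3 and 51 without GITR/Syn GA-aFuc mouse 3.

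Against Untreated, the GITR/Syn GA-aFuc mice had 0 of 11891 genes called by edgeR (0%), with 287 at an unadjusted p under 0.05 and 1 gene called by DESeq2. The genes closest to the threshold were Mmp12 (1.80, SE 0.30, adjusted p = 0.330), Il1a (1.23, adjusted p = 0.648), Ccnd3 (−1.20, adjusted p = 0.648) and Slc7a11 (1.25, adjusted p = 0.659). For the 32 genes higher in GA-aFuc, the median log2 fold change of GITR/Syn GA-aFuc against Untreated was 0.73, with 31 of 32 positive. Both comparisons share the Untreated mouse. The count was 30 without either GA-aFuc mouse, 10 without GITR/Syn GA-aFuc mouse 2 and 16 without GITR/Syn GA-aFuc mouse 3.

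GA-aFuc against N297A compares the agonists, with an enhanced Fc and with a null Fc, and gave 88 calls (0.74%). Of 11891 genes 85 (0.715%) were higher and 3 (0.0252%) lower in GA-aFuc mice, with 1090 at an unadjusted p under 0.05, and DESeq2 called 83. It shares the GA-aFuc mice with the comparison against Untreated. Alternative activation again had 7 of 14 genes higher (median 2.61), among them Slc7a2 (4.63, adjusted p = 0.000657) and Pdcd1lg2 (3.94, adjusted p = 0.000133). Nos2 stood at 162 and 209 CPM in GA-aFuc mice and 19.1 CPM in the N297A mouse (3.28, SE 0.31, adjusted p = 0.000161). Mmp12 differed by 3.73 (adjusted p = 0.000133) and Ptgs2 by 1.52 (adjusted p = 0.00842).

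Cd274 and Clec7a were also called here. Cd274, the PD-1 ligand PD-L1, had 524 and 494 CPM in GA-aFuc, 411 and 462 CPM in GITR/Syn GA-aFuc, 183 CPM in the N297A and 363 CPM in the Untreated mouse (GA-aFuc against N297A 1.47, SE 0.22, adjusted p = 0.00542). Clec7a, the β-glucan receptor dectin-1, had 1441 and 1439 CPM in GA-aFuc, 866 and 641 CPM in GITR/Syn GA-aFuc, 504 CPM in the N297A and 627 CPM in the Untreated mouse (1.51, SE 0.24, adjusted p = 0.00842). Here the N297A mouse was the lowest of the 6 for both genes. Of the interferon-γ list 4 of 17 were higher (median 0.49), and of glycolysis and hypoxia 2 of 20, Vegfa (1.10, adjusted p = 0.0287) and Ndrg1 (1.35, adjusted p = 0.0359). The neutrophil gene S100a8 was also called, with 9.08 and 46.6 CPM in GA-aFuc and 0.894 CPM in the N297A mouse.

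The 3 lower genes were Plau, urokinase (−1.09, adjusted p = 0.0223), the interferon-stimulated gene Ifit3b (−1.09, adjusted p = 0.0435) and Gm37229. Plau had 27.8 and 33.1 CPM in GA-aFuc mice, 64.9 CPM in the N297A mouse and 30.5 CPM in the Untreated mouse, so it was the N297A mouse that stood apart. All 21 type I interferon genes were negative in this comparison, with a median of −0.33 beside 0.02 over all genes. The count of 88 became 291 without GA-aFuc mouse 2, 196 without GA-aFuc mouse 3, 262 without GITR/Syn GA-aFuc mouse 2 and 264 without GITR/Syn GA-aFuc mouse 3.

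N297A against Untreated, 1 mouse against 1, had 0 of 11891 genes called by edgeR (0%), with 306 at an unadjusted p under 0.05 and 4 called by DESeq2. Nos2 (−1.79, SE 0.32), Iigp1 (−1.47, SE 0.25) and Spint1 (−1.40, SE 0.26) came closest, each with an adjusted p of 0.226. Iigp1 had 277 CPM in the N297A mouse and 766 CPM in the Untreated mouse. All 17 interferon-γ genes had a negative log2 fold change with a median of −0.55, and 20 of 21 type I interferon genes a positive one with a median of 0.22, and 0 passed in either list. The count was 33 without GA-aFuc mouse 2, 35 without GA-aFuc mouse 3 and 8 without either GITR/Syn GA-aFuc mouse.

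Taking both Fc-enhanced antibodies against the N297A and Untreated mice, 4 mice against 2, left 1 of 11288 genes (0.00886%), and it was Il1a. Its level was 65.7 and 59.6 CPM in GA-aFuc, 48.1 and 60.9 CPM in GITR/Syn GA-aFuc, 17.5 CPM in the N297A and 23.2 CPM in the Untreated mouse, with a log2 difference of 1.53 (SE 0.17, adjusted p = 0.0365). The 4 Fc-enhanced mice lay close together and well above the other 2. The call did not hold without GA-aFuc mouse 2 (adjusted p = 0.153), GITR/Syn GA-aFuc mouse 3 (0.0502), the N297A mouse (0.980) or the Untreated mouse (0.0721). Next came Dst (1.32, adjusted p = 0.119), Slc7a11 (1.86, adjusted p = 0.119) and Mmp12 (2.78, adjusted p = 0.135), which did not pass. By edgeR 1112 genes had an unadjusted p under 0.05, and DESeq2 called 72 genes.

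Within clusters, the same tests could be run for the 7 clusters with at least 20 cells in each mouse (0, 1, 7, 8, 18, 21 and 22). For GA-aFuc against Untreated, 93 of 49790 gene tests were called (0.187%), with 2 calls in cluster 0, 2 in cluster 7, 26 in cluster 18, 53 in cluster 21 and 10 in cluster 22, and 0 in clusters 1 and 8 (341 and 287 at an unadjusted p under 0.05). Arg1 was the gene called most often, in 5 of the 7 clusters. In cluster 22 it had 1132 and 2317 CPM in the GA-aFuc mice, 270.3 and 142 CPM in the GITR/Syn GA-aFuc mice, 30.6 CPM in the N297A mouse and 42.7 CPM in the Untreated mouse (5.25, adjusted p = 4.96e-05). In cluster 7 it had 775 and 1089 CPM in GA-aFuc and 124 CPM in Untreated mice (2.90, adjusted p = 9.74e-05). In cluster 0 the values were 3234 and 4129 CPM in GA-aFuc and 654 CPM in Untreated mice (2.45, adjusted p = 0.0299). There the GITR/Syn GA-aFuc mice had 1230 and 1475 CPM, above the Untreated mouse and the N297A mouse at 222 CPM. Arg1 was thus higher in GA-aFuc mice in clusters of quite different maturity.

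In cluster 8, where Arg1 is a leading gene, the GA-aFuc mice held 2221 and 6480.0 CPM, the GITR/Syn GA-aFuc mice 293 and 396 CPM, the N297A mouse 629 CPM and the Untreated mouse 340 CPM. Both GA-aFuc mice were above the rest, yet the test did not pass (3.68, adjusted p = 0.144). Over all 14 clusters, some with fewer than 20 cells in a mouse, both GA-aFuc mice stood above the other 4 in 10 clusters for Arg1 and for Slc7a2, in 9 for Mrc1 and in 7 for Ccl24 and for Pdcd1lg2. The same mice recur in every cluster, and these genes had been selected for their GA-aFuc level. The share of all genes with this order was not counted. Some orders lay near the floor, as for Ccl24 in cluster 7, with 4.01 CPM in GA-aFuc mouse 2 and 3.92 CPM in the N297A mouse. In the earliest cluster, 54, Arg1 was near the floor with 14.6 and 54.0 CPM in GA-aFuc mice and 0 UMIs in the Untreated mouse. The gene was low there in every mouse.

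Ccl24, Mrc1, Pdcd1lg2, Slc7a2 and Flt1 were each called in clusters 18, 21 and 22, and the chemokine gene Ccl8 in clusters 7, 21 and 22. In cluster 21 the calls of Mrc1 and Ccl8 rested on GA-aFuc mouse 3, at 195 and 176 CPM. GA-aFuc mouse 2 had 8.90 CPM of each, below the Untreated mouse at 13.1 and 10.5 CPM. For Ccl24, Pdcd1lg2, Slc7a2 and Flt1 both GA-aFuc mice were above all others in that cluster. In cluster 22, Mrc1 had 385 and 461 CPM in the GA-aFuc mice, 102 and 12.0 CPM in the GITR/Syn GA-aFuc mice, 15.3 CPM in the N297A mouse and 18.3 CPM in the Untreated mouse (4.44, adjusted p = 0.0108). In cluster 18, H2-Ab1 was lower in GA-aFuc mice, with 5970.3 and 4863 CPM against 8433 CPM in the Untreated mouse (−0.68, adjusted p = 0.0142). C1qa had 1592 and 962 CPM against 2489 CPM (−0.999, adjusted p = 0.0116). The Untreated mouse was the highest of all mice for both genes. H2-Ab1 had 7749 and 6834 CPM in the GITR/Syn GA-aFuc mice and 6207 CPM in the N297A mouse. For C1qa these mice had 1443, 2308 and 1600 CPM, so the GA-aFuc mice did not stand apart from them. The calls in the small clusters 18 and 21 do not need both mice. Xist was called in both, with 454 and 0 CPM in the GA-aFuc mice and 0 CPM in the Untreated mouse in cluster 18. Both GA-aFuc mice were above all others for 14 of 26 calls in cluster 18 and 32 of 53 in cluster 21, and for 9 of 10 in cluster 22. Only clusters 0 and 1 had at least 40 cells in each mouse. Of the 93 calls these held the 2 of cluster 0, and the others lay in clusters that this minimum leaves out.

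**Figure D4:**
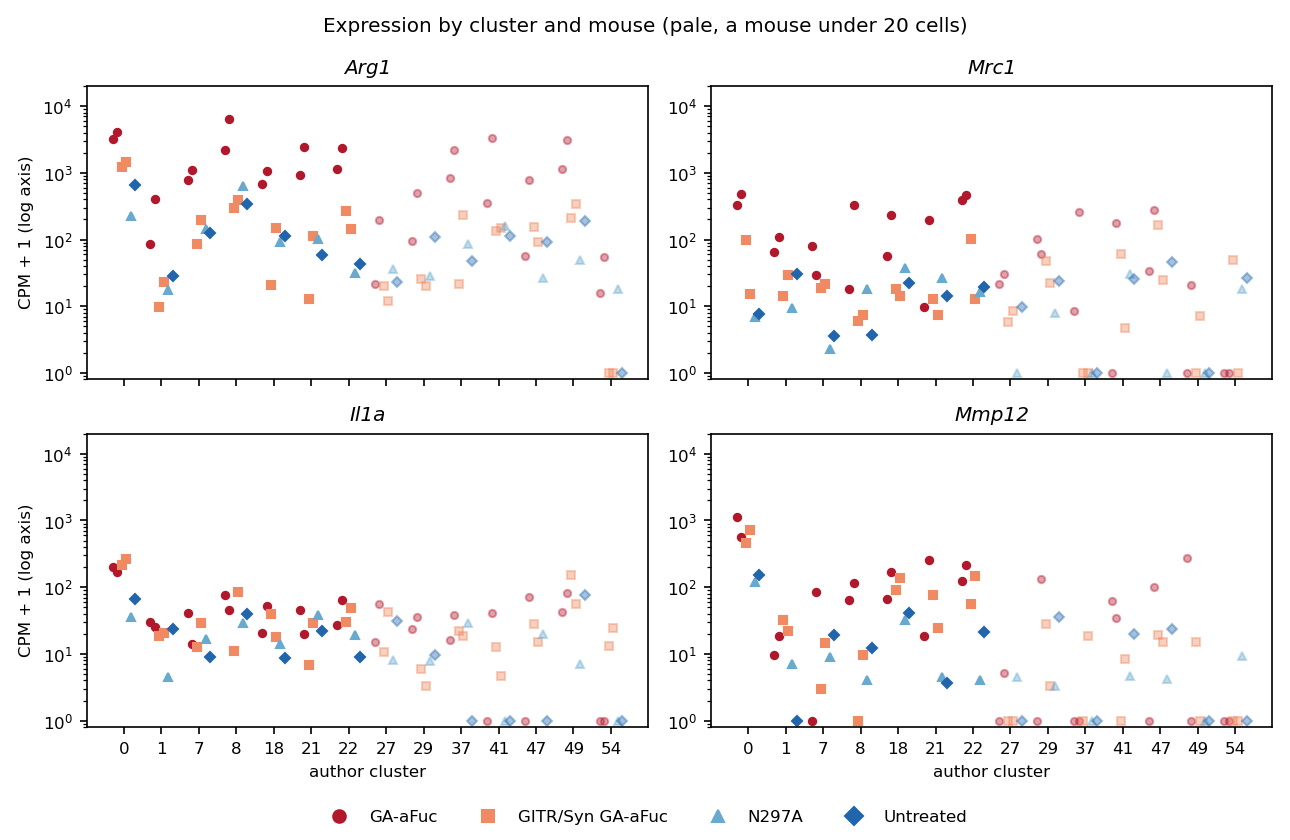
Level of Arg1, Mrc1, Il1a and Mmp12 (CPM + 1, log axis) in each monocyte cluster and mouse of library 2, with pale points where a mouse has fewer than 20 cells. Arg1 is higher in both GA-aFuc mice than in the other 4 mice in 10 of 14 clusters, and Il1a and Mmp12 are highest in cluster 0. The same mice recur in every cluster, so clusters are not replicates.

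For both Fc-enhanced antibodies against the N297A and Untreated mice, 20 of 44719 gene tests within clusters were called (0.0447%). All 20 lay in cluster 0, with 19 higher and 1 lower, and in 19 of them the 4 Fc-enhanced mice stood above the other 2. That order follows largely from the selection, since the genes were called by this comparison of the same mice. The share of all tested genes with this order was not counted. The clusters without calls had 216 to 583 genes at an unadjusted p under 0.05, and a difference between clusters was not tested. Mmp12 had 1115 and 564 CPM in GA-aFuc, 454 and 716 CPM in GITR/Syn GA-aFuc, 120 CPM in the N297A and 149 CPM in the Untreated mouse (2.40, SE 0.34, adjusted p = 0.0152). Il1a had 202 and 167 CPM in GA-aFuc, 212 and 261 CPM in GITR/Syn GA-aFuc, 34.7 CPM in the N297A and 66.4 CPM in the Untreated mouse (2.04, SE 0.30, adjusted p = 0.0157). So cells counted as cluster 0 in the N297A and Untreated mice carried less of several genes that lead the cluster.

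Of those 20 genes, 5 are leading genes of cluster 0 (Mmp12, Inhba, Il1a, Slc7a11 and Ptgs2) and 15 are not. Of the 15, Abca1, the cholesterol exporter, had 481 and 512 CPM in GA-aFuc, 458 and 431 CPM in GITR/Syn GA-aFuc, 131 CPM in the N297A and 202 CPM in the Untreated mouse (1.48, SE 0.21, adjusted p = 0.0152). The transcription regulator Id2 had 272 and 273 CPM, 298 and 292 CPM, 94.5 CPM and 124 CPM in the same mice (1.36, SE 0.20, adjusted p = 0.0157). Mmp13 (3.90, adjusted p = 0.0149), Pdpn, podoplanin (1.95, adjusted p = 0.0152), and Malt1, a signalling protease upstream of NF-κB (0.95, adjusted p = 0.0298) were higher too. Whether the agonist and the non-agonist differ within cluster 0 was not tested. The 1 lower gene, Gpr183, an oxysterol receptor that guides migration, had 16.6 and 35.7 CPM in GA-aFuc, 36.3 and 25.9 CPM in GITR/Syn GA-aFuc, 135 CPM in the N297A and 101.2 CPM in the Untreated mouse (−2.05, SE 0.27, adjusted p = 0.0149). Arg1 in cluster 0 missed the threshold in this grouping (adjusted p = 0.0734).

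**Figure D5:**
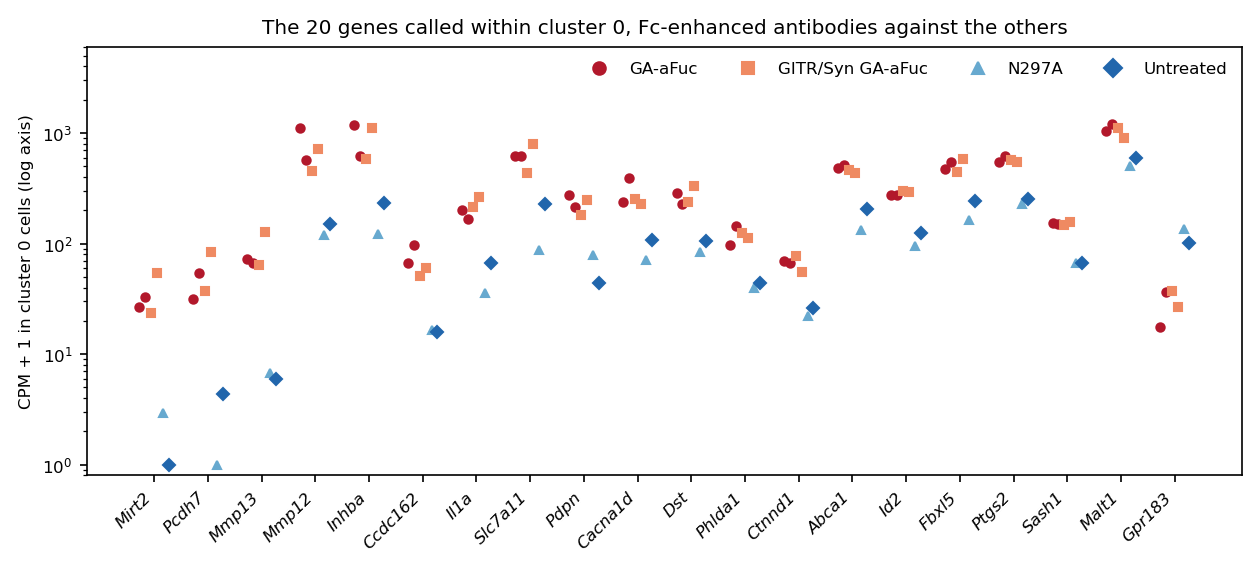
The 20 genes called within cluster 0 between Fc-enhanced and other mice (CPM + 1, log axis), by mouse. In 19 genes the GA-aFuc and GITR/Syn GA-aFuc mice lie above the N297A and Untreated mice, and in Gpr183 below them (16.6 to 36.3 CPM, other mice 135 and 101.2 CPM). The genes were selected by this comparison.

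No human Fcγ receptor gene passed over all monocytes between GA-aFuc and Untreated mice. FCGR1A, the high-affinity receptor FcγRI, had 82.5 and 62.9 CPM in GA-aFuc, 113 and 113 CPM in GITR/Syn GA-aFuc, 143 CPM in the N297A and 147 CPM in the Untreated mouse (GA-aFuc against Untreated −1.02, SE 0.22, adjusted p = 0.0879), which did not pass. Within clusters 18 and 21 it was called lower with GA-aFuc than without treatment (−1.56, adjusted p = 0.0496, and −1.72, adjusted p = 0.00212). FCGR2A had 1096 and 1127 CPM in GA-aFuc and 975 CPM in Untreated mice (0.19, adjusted p = 0.972), and FCGR2B 1049 and 1072 CPM and 1150.2 CPM (−0.12, adjusted p = 0.979). The transcripts counted as FCGR3B had 2868 and 2679 CPM in GA-aFuc and 3099 CPM in Untreated mice (−0.16, adjusted p = 0.972). Tnfrsf18, which encodes GITR, was barely detected in monocytes, at 2.94 and 6.18 CPM in GA-aFuc and 6.13 CPM in Untreated mice, while CD8 T and NK cells of the library averaged 174 CPM.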

How the data were processed

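Monocytes of 6 mice in library 2 were analysed from the UMI counts per gene and cell deposited by the authors. Per the file headers they come from Cell Ranger 9.0.0, and the submitters' processing notes name the builds GRCh38 and GRCm39. The matrix holds 33696 mouse and 38606 human features. Cell types, clusters and mice come from the authors' deposited annotation, and the mouse of each cell was checked against its hashtag counts; no further cells were filtered and no doublet caller was run. A barcode was read in the second library from the order of the annotation's runs.

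Counts were summed per mouse and tested with edgeR 4.0.16 (R 4.3.3, quasi-likelihood test, TMM, edgeR's default filter on low counts, all 4 treatments in 1 fit, Benjamini-Hochberg adjustment over all genes, threshold 0.05). With 6 mice the fit has 2 residual degrees of freedom, or 4 for both Fc-enhanced antibodies against the rest. Nothing says that the hashtagged mice came from separate experiments, so p-values measure the spread between these mice. Cluster values are plain CPM; treatment comparisons over all monocytes use TMM-scaled CPM. Within clusters the same test ran where each mouse had at least 20 cells. Cluster shares were compared over 12 mice by exact permutation within libraries (32400 arrangements for 4 treatments, 225 for the Fc comparison, smallest p 0.00444; scipy 1.17.1), and cell counts by edgeR. Scripts were tested on simulated data.

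Leading genes of a cluster are the 10 with the highest ratio of CPM plus 10 to that of the other clusters, at 50 CPM or more. Named genes are up to 12 highest and 12 lowest among called genes whose mice do not overlap, up to 4 per list by p, the 5 closest where fewer than 5 passed, and the markers, Arg1, GITR, its ligand and Fc receptor genes; other genes, the promoters, the motifs and the orders of mice were chosen after values were seen. The members and lists were chosen with earlier results of these data known. Alternatives were RLE and DESeq2 1.42.0, other filters, equal cells per mouse or per cluster, leaving out the 1% of cells with most UMIs or single mice, cluster 42 included and, chosen after seeing the data, a replicate block.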

Additional observations from a re-analysis of the deposited data

Results flagged for a closer look

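Of 60 groups of 4 to 10 mice, 2 held a mouse far from the rest, where chance alone gives about 1 in 20. Cluster 1 made up 10.0% of monocytes in GA-aFuc mouse 3, the lowest of the 6 Fc-enhanced mice, and the gap to the next mouse was 0.869 of the range. Ccl24 stood at 651 CPM in GA-aFuc mouse 3, the highest of the 4 Fc-enhanced mice of library 2, with a gap of 0.833 of the range.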

How the results depend on the processing

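No result changed direction under the settings tried. Of the single genes named, 889 comparisons with another setting stayed on their side of the threshold and 178 no longer passed. For GA-aFuc against Untreated (32 genes), the count was 212 with no filter on low counts, 13 with equal cells per mouse, 9 with equal cells per cluster, 14 without the 1% of cells with most UMIs, 21 with cluster 42 included and 103 with the compared treatments only, and 23 to 262 when leaving out single mice. For GITR/Syn GA-aFuc against Untreated (0 genes) it was 1 by DESeq2, 28 with no filter, 30 with the compared treatments only and 0 to 30 without single mice. For GA-aFuc against N297A (88 genes) it was 348, 57 and 26 with no filter, equal cells per mouse and equal cells per cluster, 228 with the compared treatments only and 80 to 291 without single mice. For GITR/Syn GA-aFuc against GA-aFuc (19 genes) it was 163 with no filter, 11 with either equal number of cells, 12 without the cells with most UMIs and 15 to 222 without single mice. For N297A against Untreated (0 genes) it was 4 by DESeq2, 35 with no filter and 8 to 35 without single mice. For both Fc-enhanced antibodies (1 gene) it was 72 by DESeq2, 402 with no filter, 3 and 8 with equal cells per mouse and per cluster, and 0 to 8 without single mice. Within clusters, 93 calls became 52 under a stricter filter and 2 with at least 40 cells, a minimum that leaves out every cluster but 0 and 1.

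The cluster shares passing over 4 treatments (1) became 0 with all annotated cells as denominator, with no library strata, in library 2 alone and in library 1 alone, and 0 to 3 without single mice. The adjusted p of cluster 0 was 0.251, 0.141, 0.598 and 0.544 in those settings, and 0.00519 to 0.254 without single mice. For both Fc-enhanced antibodies it was 0.0933 to 0.373 without single mice. In 1 library alone, and in the Fc comparison, too few arrangements exist for 1 cluster alone to pass after adjustment. In the cell counts, clusters passing between GA-aFuc and Untreated (1) were 2 with treatment alone as a term and 0 to 3 without single mice, those between GA-aFuc and N297A (1) were 0 to 1, and those between GITR/Syn GA-aFuc and GA-aFuc (0) were 0 to 2. With a floor of 100 and an offset of 50 CPM, a median of 6 of 10 leading genes were shared. The cause of these changes was not tested, other than that fewer mice or cells entered. Mouse numbers follow the order of the annotation and name no pairs, but in library 2 the mice numbered 2 are the 2 with high Xist, so number and sex-linked transcripts cannot be told apart. The deviations of the mice numbered 2 and 3 correlated between GA-aFuc and GITR/Syn GA-aFuc with r = 0.0972 across 11891 genes, which are not independent replicates. A replicate block for that number, chosen after seeing the data, left 1 residual degree of freedom. The counts with the block were 243 for GA-aFuc and 27 for GITR/Syn GA-aFuc against Untreated, 278 for GA-aFuc against N297A, 140 for GITR/Syn GA-aFuc against GA-aFuc, 34 for N297A against Untreated and 7 for both Fc-enhanced antibodies; each holds every gene called without it (32, 0, 88, 19, 0 and 1). With 1 mouse in the N297A and Untreated groups of library 2, differences from them rest on that mouse.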
